A study of Mus musculus with 6 samples.

Results

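Of the 9 genes described here, 3 encode cyclin-dependent kinases (Cdk6, Cdk4 and Cdk1). A further 3 encode inhibitors of cyclin-dependent kinases (Cdkn2a, Cdkn2b and Cdkn1a), and 3 encode cyclins (Ccnd1, Ccnd2 and Ccne1). All 9 were named one by one, out of 21887 protein-coding mouse genes. Every region of the deposited list whose centre lay inside such a gene or within 100 kb of either end was taken. That gave 15 of the 6502 regions, at 7 of the 9 genes. Cdkn1a and Ccnd1 had none.

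The regions come from ATAC-seq, in which a transposase cuts and tags accessible DNA, of mouse prostate cells sorted as basal stem cells. Inflamed prostates gave 3 libraries and naive prostates gave 3. The inflamed libraries are labelled POET3, a strain whose prostate carries ovalbumin as a transgene product, and were made 7 days after transfer of pre-activated OT-1 splenocytes, whose T cells recognise ovalbumin. The naive libraries are labelled WT and control, although the protocol text names POET3 mice for both groups, so inflammation and labelled genotype cannot be told apart. All cells were gated as CD45-, CD31-, Sca-1+ and CD49f+ and were not cultured. The labels give no age, no promoter for the transgene and no statement that libraries came from separate animals. No expression was measured, so the cell type could not be checked against its markers.

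The list holds a chromosome, a start and an end per region and no value per library. It was read as a list of regions that differ between inflamed and naive cells, because the authors' name for it contains "diff" and their notes name edgeR. It does not say in which group a region was more accessible, and in sorted bulk cells a more open site and a larger share of cells with that site open cannot be told apart. No fold change, replicate error or test between the groups could therefore be computed, and the depth is unknown. Nearly all regions have one of 2 widths, 0.143 kb (called narrow here) or 0.451 kb (called wide), and what these stand for is not given in the sources used here. The values below are positions, widths and counts, set beside the same counts over all protein-coding genes.

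In the G1 phase a cell decides whether to divide. D cyclins, encoded by Ccnd1 and Ccnd2, activate CDK4 and CDK6, which begin to phosphorylate the retinoblastoma protein, and cyclin E, encoded by Ccne1, completes this step with CDK2. The INK4 proteins made from Cdkn2a and Cdkn2b bind CDK4 and CDK6 and keep D cyclins from activating them, while p21, made from Cdkn1a, inhibits cyclin-CDK complexes more broadly and is a classical p53 target. CDK1 acts later than the others and drives entry into mitosis, so Cdk1 is a G1 gene only by the name of the group.

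2 of the 9 genes had a region at an annotated transcription start, Cdkn2b and Cdk6, and both regions were of the wide kind. The 250 bases before each start are shown because the Cdkn2b region reaches into them and the Cdk6 region begins just beyond its start. Both sequences are RefSeq's for assembly GRCm38.p6, the build whose primary chromosomes are those of mm10, and are written in the direction of transcription. In the Cdkn2b sequence (chr4:89311033-89311282, minus strand) the capitals mark the 153 bases that lie inside the listed region.
Cdkn2b: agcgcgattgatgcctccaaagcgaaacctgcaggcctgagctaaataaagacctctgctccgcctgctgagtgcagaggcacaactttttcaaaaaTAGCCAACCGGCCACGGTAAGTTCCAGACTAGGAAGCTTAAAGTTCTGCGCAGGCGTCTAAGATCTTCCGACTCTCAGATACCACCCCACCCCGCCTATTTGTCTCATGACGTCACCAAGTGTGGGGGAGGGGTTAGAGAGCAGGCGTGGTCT
In the Cdk6 sequence (chr5:3343643-3343892, plus strand) no base lies inside a listed region, and the capitals mark the matches to the motifs searched.
Cdk6: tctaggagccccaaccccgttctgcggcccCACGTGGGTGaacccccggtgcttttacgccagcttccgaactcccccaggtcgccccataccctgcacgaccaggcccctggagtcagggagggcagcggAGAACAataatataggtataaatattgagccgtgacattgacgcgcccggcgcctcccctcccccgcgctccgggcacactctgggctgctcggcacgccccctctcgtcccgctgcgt

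The Cdkn2b region lay on chromosome 4 at 89310735 to 89311185. It ran from 153 bases before the start to 297 bases after it, so it covered the start itself, and its centre was 72 bases downstream. The Cdk6 region lay on chromosome 5 at 3343993 to 3344443, from 100 to 550 bases after the start, with its centre at 325 bases. RefSeq's span of Cdk6 begins further upstream than this start, so the centre was 3.21 kb from the end of the span. Measured from gene ends alone, the Cdk6 region would not count as lying at a start.

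RefSeq's promoter windows, each from 250 bases before a start to 50 after it, were available for 7 of the 9 genes. At 2 of these 7 genes the centre of a region fell within 1 kb of a start, against 3.68% of the 17492 protein-coding genes with such a window. Cdkn2b alone had a region that overlapped its window, by 203 bases, against 3.19% of those genes. Over all 32851 promoter windows, 594 were overlapped by a wide region and 133 by a narrow region. The width of the Cdkn2b region was thus the more common one at starts.

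**Figure D1:**
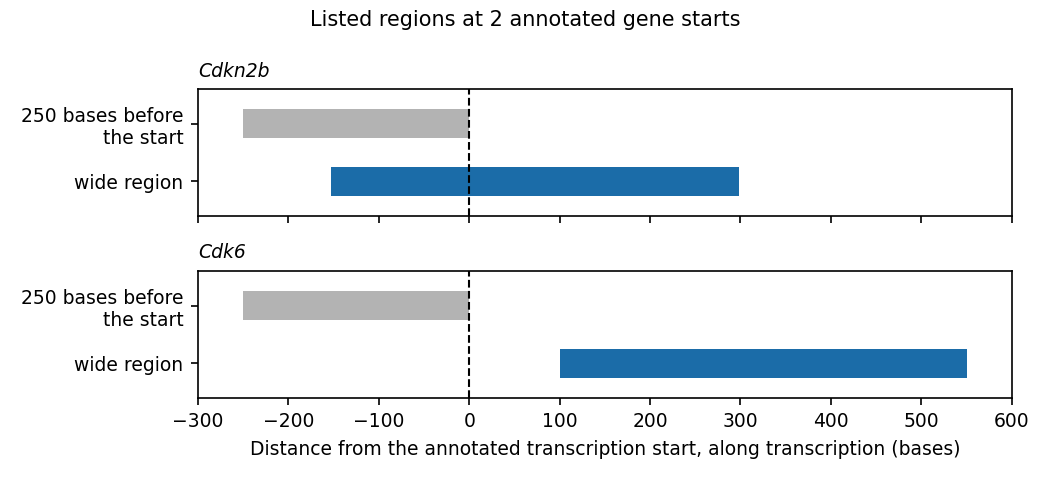
Position of the wide listed regions (blue) relative to the annotated transcription starts (dashed line) of Cdkn2b and Cdk6, in bases along the direction of transcription, with the 250 bases before each start in grey. The Cdkn2b region spans its start, from 153 bases before to 297 after, and the Cdk6 region begins 100 bases after its start.

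The 250 bases before the starts were searched on both strands for 9 motifs, and the share of all 32851 windows holding each is given beside it. The Cdkn2b sequence held 2 matches to CACCC, the core bound by KLF factors and found in 52.0% of windows, at 71 to 67 and 66 to 62 bases before the start. It held 1 E-box (CANNTG, in 66.2% of windows) at 37 to 32 bases before the start, and all 3 of these matches lay inside the listed region. A match to the CHR element of cell cycle genes (TTTGAA or TTTAAA, 25.2% of windows) lay outside it, at 161 to 156 bases before the start. The Cdk6 sequence held 1 E-box, at 220 to 215 bases before the start, of the form CACGTG, the form preferred by MYC. A CACCC match on the other strand shared 1 base with it, and the core of androgen receptor sites (AGAACA, 16.1% of windows) lay at 119 to 114. The share of windows with CACGTG itself is not given here. That form is not particular to Cdk6 among the 9 genes. The 250 bases before the Cdk4 start held 4 E-boxes, all CACGTG, and the nearest region to Cdk4 was 27.3 kb away. Neither the Cdkn2b nor the Cdk6 sequence matched NF-kB (GGG and TCC with 4 free bases between them, 16.5% of windows). Nor did either match AP-1 (TGACTCA or TGAGTCA, 4.46%). The same was true of E2F (TTTCCCGC, TTTGGCGC or TTTCGCGC, 1.53%), NF-Y (CCAAT, 33.8%) and Sp1 (GGGCGG, 32.7%). A missing match says only that these letters are not in these 250 bases. The G and C content was 53.6% for Cdkn2b and 66.0% for Cdk6, against a median of 52.4% over all windows.

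The windows of the kinase genes held most of the regions, 11 of the 15, and that of Cdk6 held 6 of these. The mean over all protein-coding genes was 0.727 regions per window. With each region given only to its enclosing or nearest gene, Cdk6 kept 6, Cdk1 kept 1 and Cdk4 kept 0. By the same rule Cdkn2b, Ccnd2 and Ccne1 kept 1 each. Cdk6 (NCBI gene 12571, chromosome 5, 3341004 to 3531008) encodes a kinase that acts with D cyclins. Of its 6 regions, 5 lay inside the gene and 1 lay 39.7 kb outside its lower end, at 3301222 to 3301364 and inside the non-coding gene Gm36470. Besides the region at the start, a wide region lay 67.7 kb into the gene, at 3411385 to 3411835. It also lay inside the antisense long non-coding RNA gene Gm29868, 1.1 kb downstream of one of that gene's starts. The remaining 3 were narrow and lay close together in the 3′ part of the gene, at 3494526 to 3494668, 3501740 to 3501882 and 3502753 to 3502895. From the first to the last of them was 8.23 kb, and the centres of the last 2 were 1.01 kb apart.

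Inside Cdk6 the wide regions came before the narrow ones. The wide regions lay 0.325 and 67.7 kb after the start and the narrow ones 151, 158 and 159 kb after it, while the narrow region outside the gene lay 42.6 kb before the start. Whether a region lay in an exon or an intron was not determined. Groups of 3 or more regions within 10 kb were rare in the list, with 12 such groups holding 36 of the 6502 regions (0.554%). The 3 regions in the 3′ part of Cdk6 formed one of these groups. Over the whole list, the median distance to the nearest other region was 67.9 kb.

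A count of 6 was reached by 88 of the 21887 protein-coding genes (0.402%). The Cdk6 count was 5 with regions within 1 kb of each other merged, 4 with narrow regions only and 2 with wide regions only. Cdk6 is long, at 190 kb, against a median of 17.2 kb. Among the 739 protein-coding genes of 150 to 250 kb, the median gene had 0 regions inside and 10 genes (1.35%) had at least 5, as Cdk6 did. Per Mb of window Cdk6 had 15.4 regions, against a mean of 2.91 over all protein-coding genes and 2.39 per Mb on chromosome 5. A density at least as high was found for 1.59% of all protein-coding genes. Cdk4 came close, with 14.7 per Mb (2.23%), although none of its regions lay nearest to it. Cdk1 had 9.18 (10.2%) and Cdkn2a 9.08 (10.6%), and the other members had 4.88 or less.

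Cdk4 (NCBI gene 12567, chromosome 10, 127063535 to 127067288), the other kinase of the D cyclins, had 3 regions in its window, all narrow and all downstream of the gene. None of them lay nearest to Cdk4, which stands in a gene-dense stretch with 11 other protein-coding genes in reach. The region at 127094480 to 127094622, 27.3 kb away, was inside Os9, whose product acts in quality control of proteins in the endoplasmic reticulum, 0.292 kb from that gene's 3′ end. The region at 127126749 to 127126891, 59.5 kb away, was 5.66 kb upstream of Os9. The region at 127162829 to 127162971, 95.6 kb away, was 2.26 kb outside B4galnt1, which encodes a ganglioside synthase, and inside the non-coding gene Gm51819.

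Cdk1 (NCBI gene 12534, chromosome 10, 69335146 to 69352912), the mitotic kinase, had 2 regions, both wide and both downstream. The nearer, at 69321536 to 69321986, was 13.4 kb beyond the 3′ end and had Cdk1 as its nearest gene. The other, at 69253119 to 69253569, was 81.8 kb away and lay inside Rhobtb1. Neither was near the Cdk1 start. The 250 bases before it held 3 matches to NF-Y (33.8% of all windows), 2 to CHR (25.2%) and 2 to Sp1 (32.7%). They also held 1 match to E2F (1.53%) and 1 E-box (66.2%). Of the 9 promoter windows of the members, NF-Y was matched in 1, E2F, NF-kB and the androgen receptor core in 2 each, and CHR in 3. Sp1 and the E-box were matched in 5 each, KLF in 7 and AP-1 in 0.

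**Figure D2:**
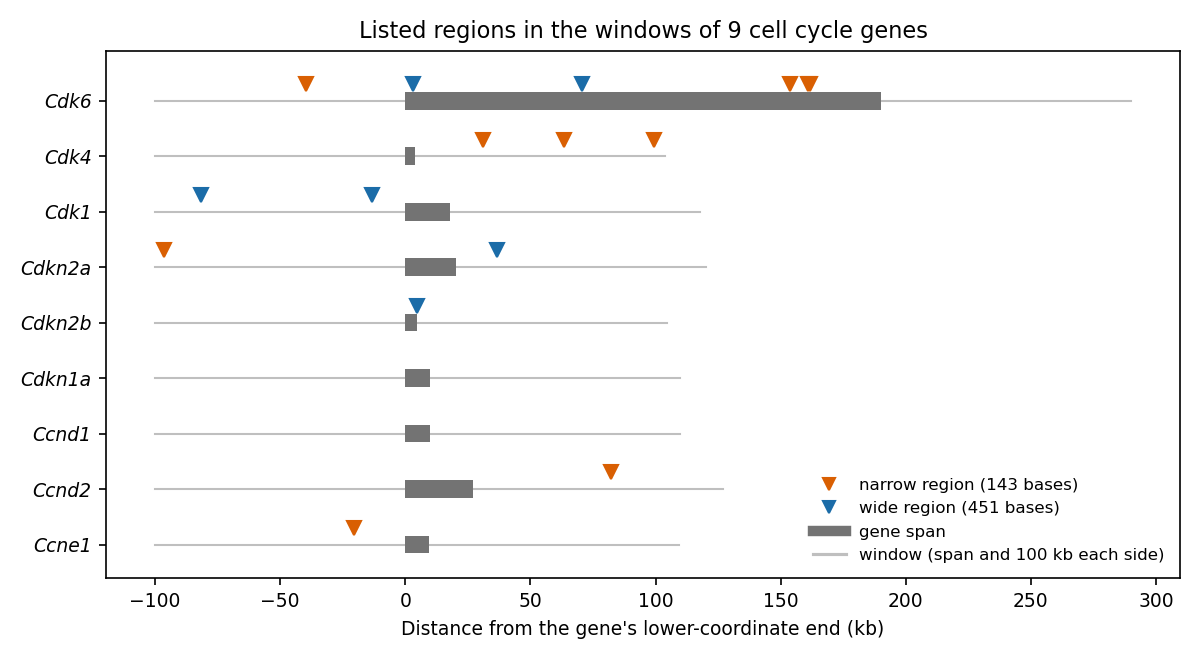
Listed regions (triangles, orange for narrow and blue for wide) in the window of each gene, as distance in kb from the gene's lower-coordinate end, with gene spans as grey bars and the 100 kb on each side as grey lines. Cdk6 carries 6 regions, of which 2 lie 1.01 kb apart and overlap in the drawing, while Cdkn1a and Ccnd1 carry none.

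The inhibitor genes Cdkn2b and Cdkn2a lie side by side on chromosome 4 and shared one region. Cdkn2b (NCBI gene 12579, 89306289 to 89311032), which makes p15INK4b, a target of TGF-beta signalling in epithelial cells, had no other region in its window than the one across its start. Cdkn2a (NCBI gene 12578, 89274473 to 89294619) makes p16INK4a and ARF from 2 separate starts. Seen from Cdkn2a, the shared region lay 16.3 kb upstream of the outer start, that of ARF, and 28.8 kb upstream of the inner one, that of p16INK4a. No region overlapped either of the Cdkn2a promoter windows. The shared region also lay inside the non-coding gene Gm12610, which begins 561 bases from the outer Cdkn2a start and runs in the opposite direction across Cdkn2b.

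The only other region in the Cdkn2a window was narrow, at 89178018 to 89178160, and 96.4 kb downstream. It lay inside Mtap, a gene of methionine salvage, 3.0 kb from that gene's 3′ end. At the INK4 genes, the one region that had a member as its nearest gene was thus the Cdkn2b region.

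Cdkn1a (NCBI gene 12575, chromosome 17, 29090979 to 29100722) had no region within 100 kb, and its nearest one was 298 kb away. Of all protein-coding genes, 29.9% had their nearest region at least that far off. The list does not show whether the Cdkn1a locus was closed, open in both groups alike, or short of a cut-off used before deposit.

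Among the cyclins, Ccne1 and Ccnd2 had 1 region each and Ccnd1 had none. At least 1 region lay in the window of 42.7% of all protein-coding genes. Ccne1 (NCBI gene 12447, chromosome 7, 38097984 to 38107490) had a narrow region at 38077327 to 38077469, 20.6 kb beyond its 3′ end and inside the non-coding gene Gm30771. Ccnd2 (NCBI gene 12444, chromosome 6, 127125162 to 127152188) had a narrow region at 127207444 to 127207586, 55.3 kb away and inside the non-coding gene 9330179D12Rik. In both cases the cyclin was the nearest protein-coding gene. For Ccnd1 the same limit holds as for Cdkn1a. The nearest region to Ccnd1 (NCBI gene 12443, chromosome 7, 144929931 to 144939831) was 182 kb away. Of all protein-coding genes, 42.4% had their nearest region at least that far off.

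Counted over the group, 7 of the 9 genes had a region in the window, against 42.7% of all protein-coding genes. The median gene of the 9 had 1 region, against 0 for the median protein-coding gene, and its nearest region was 20.6 kb away, against 136 kb. Of the 8 genes shorter than 30 kb, 6 had a region, against 36.4% of the 14381 protein-coding genes of that length. With a region required inside the gene, 2 of the 9 remained, Cdk6 and Cdkn2b, against 10.2%. With each region given only to the gene enclosing it or nearest to it, 5 of the 9 had one, against 16.9%. The 9 genes were named with earlier results of these data known, so these counts describe them and were not tested.

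**Figure D3:**
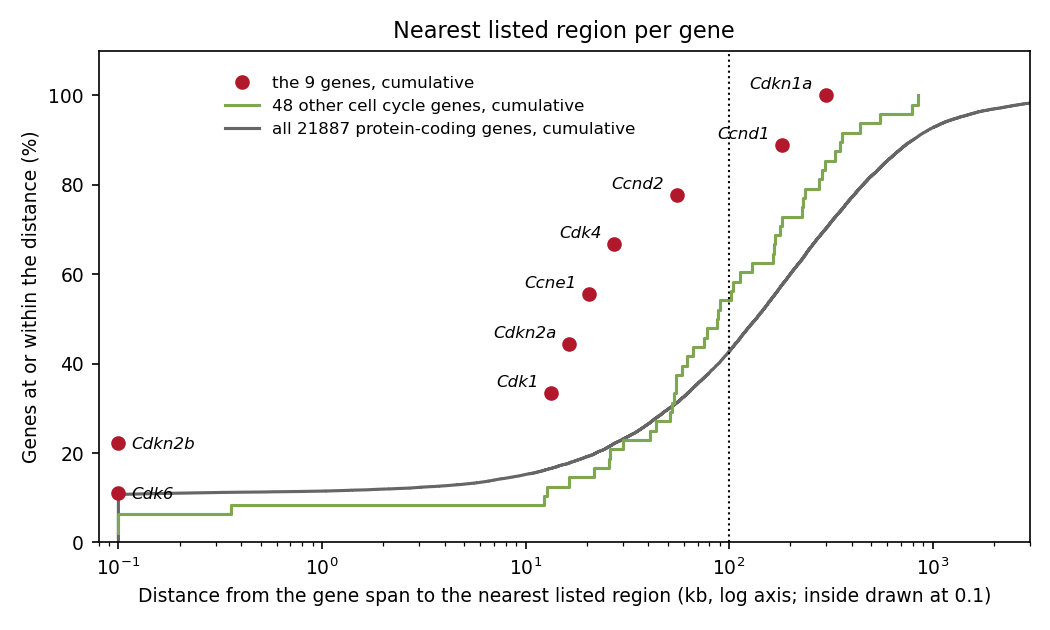
Cumulative percentage of genes (vertical axis) whose nearest listed region lies at or within a distance in kb (horizontal log axis, regions inside a gene drawn at 0.1, dotted line at 100 kb), for the 9 genes (red), 48 other cell cycle genes (green) and all 21887 protein-coding genes (grey). Cdk6 and Cdkn2b hold a region, 5 genes have one between 13.4 and 55.3 kb away, and Ccnd1 and Cdkn1a lie beyond the line.

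At the limit of 100 kb, the outermost regions counted were 96.4 kb from Cdkn2a and 95.6 kb from Cdk4, and the nearest ones left out were 101 kb from Cdk4 and 110 kb from Ccne1. Of the 15 regions, 10 had one of the 9 genes as their enclosing or nearest gene and 5 had another gene (2 for Os9 and 1 each for B4galnt1, Rhobtb1 and Mtap). By width, 10 of the 15 (66.7%) were narrow and 5 were wide, against 49.4% and 50.6% of the whole list. For the 7 genes whose direction is known, 9 pairs of a gene and a region lay outside the gene, 7 of them downstream and 2 upstream. The 7 downstream pairs include all 5 regions that had another gene as their enclosing or nearest gene. The same split was not counted over all protein-coding genes, so it is not read as a trait of these genes. In all, 6 of the 15 regions (40.0%) lay inside a long non-coding RNA gene, against 770 of the 6502 (11.8%), and this difference was not tested. The 2 sets are also unlike. The 15 were taken for lying in or within 100 kb of a named gene, while the 6502 have no such limit.

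The other genes of the pathway were taken from a list of 48, grouped by role. Of these, 26 had a region in the window (54.2%) and 3 had one inside the gene (6.25%), beside the 42.7% and 10.2% of all protein-coding genes. E2F and DP transcription factors had a region in 7 of 10 genes, and phosphatases, kinases and kinase partners that act on CDKs in 6 of 8. The other INK4 and CIP/KIP inhibitors had one in 1 of 4 (Cdkn1b), and the pocket protein genes Rb1, Rbl1 and Rbl2 had one in 0 of 3. Proliferation marker genes (Mki67, Pcna and Top2a) had one in 3 of 3, all of them between 30.2 and 87.3 kb away. Of the 43 distinct regions in these windows, 36 had a gene outside the list as their enclosing or nearest gene. Counted by gene, 7 of the 48 (14.6%) were the enclosing or nearest gene of a region, near the 16.9% of all protein-coding genes.

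Within 10 kb, 4 of the 48 had a region, against 15.2% of all protein-coding genes. Fbxw7, which encodes the ubiquitin ligase subunit that recognises cyclin E, had 3 regions, one of them wide and lying across an annotated start (chromosome 3, 84952038 to 84952488), centred 0.052 kb after it. Fzr1, an activator of the anaphase-promoting complex, had a narrow region centred 0.358 kb before its start (chromosome 10, 81378657 to 81378799). Tfdp2, a partner of E2F factors, had a narrow region inside the gene (chromosome 9, 96202515 to 96202657). Mnat1, a subunit of the CDK-activating kinase, had a wide region inside the gene (chromosome 12, 73245713 to 73246163).

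**Figure D4:**
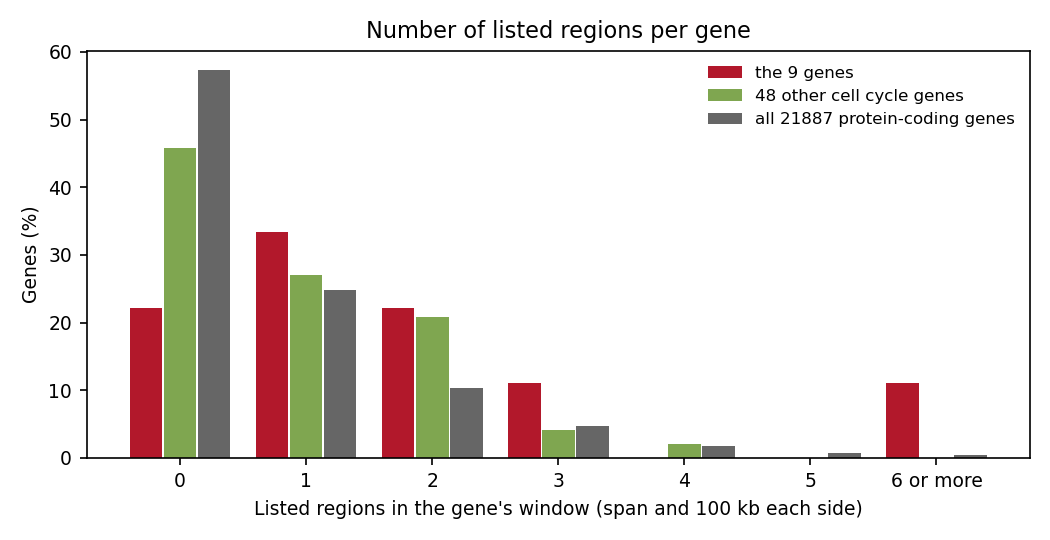
Percentage of genes (vertical axis) by the number of listed regions in the window (horizontal axis), for the 9 genes (red), 48 other cell cycle genes (green) and all 21887 protein-coding genes (grey). A window without a region was found for 2 of the 9 genes (22.2%), 45.8% of the other cell cycle genes and 57.3% of all, and 6 or more regions for Cdk6 and for 0.402% of all.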

How the data were processed

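The submitters' processing notes name build mm10 and 4 tools, edgeR, HOMER 4.8, SAMtools and BWA 0.7.17-r1188. The deposited list's name strings together abbreviations that may give an order of steps, with duplicates removed before and sets merged after a comparison, and a number beside "edge" and "diff" that may be a cut-off. What that number limits, and whether libraries were pooled, is not given in the sources used here. The deposited list holds coordinates only. Whatever filter the authors applied before deposit fixes which regions can appear.

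Starts, counted from 0 in the list, are printed from 1. Regions were placed by their centre against gene spans of a RefSeq table (GRCm38.p6, 21887 protein-coding genes on chromosomes 1 to 19, X and Y). Starts, strand and promoter sequence came from a RefSeq table of 32851 windows, which holds 7 of the 9 genes. No genome sequence was used here, so the regions' own sequences were not analysed. Counts were made with Python 3.11.15 and pandas 2.3.3 and checked against a plain search on simulated positions. Genes named were the 9, the nearest or enclosing genes of their regions, and other cell cycle genes with a region inside or within 10 kb, besides genes given as examples of a role or marker list. The 9 genes and the lists were chosen with earlier results of these data known.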

Additional observations from a re-analysis of the deposited data

How the results depend on the processing

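No paired analysis was possible because values per library are not part of the list, and for the same reason no library could be left out. Of the 9 genes, 7 had a region. Beside the share of all protein-coding genes under the same setting, the number was 4 with wide regions only (19.7%), 5 with narrow regions only (29.0%), 2 with a window of 10 kb (15.2%), 2 when the centre had to lie inside the gene (10.2%), 6 at 50 kb (29.7%) and 8 at 200 kb (60.0%). It was 5 to 7 under the other settings run. The distinct regions, 15 in all, numbered 5 with wide regions only, 6 with a window of 10 kb, 6 inside genes and 24 with a window of 200 kb. Of the other cell cycle genes, 26 had a region. This fell to 15 (31.2%) with narrow and 15 (31.2%) with wide regions only, 3 (6.25%) inside genes, 7 (14.6%, against 16.9% of all genes) when a region counted only for its enclosing or nearest gene, 4 (8.33%) at 10 kb and 13 (27.1%) at 50 kb. Fewer regions, fewer pairs of gene and region or shorter windows enter under each of these settings, except at 200 kb, where more do. Cdkn1a had 0 regions under every setting run, and Ccnd1 had 0 except at 200 kb, where it had 2. The depth of the libraries is unknown, so no limit on what could be detected can be given.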
